A study of Mus musculus with 3 samples.

Results

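Respiratory chain assembly factors are proteins that help to build the complexes of the mitochondrial respiratory chain and the ATP synthase but are not part of the finished complexes. RNA immunoprecipitation sequencing (RIP-seq) counts of 47 such genes were examined, out of 49997 genes in the count table. The 47 were taken by name, as a group drawn up because *Sdhaf1* and *Dnajc30* stood among the genes with the highest YTHDF2 IP over input in these same libraries. The model was fitted over all genes, and its values and calls are given for the members as a description only, since the group was chosen on the same contrast. All 3 libraries came from mouse embryonic stem cells (ESCs) of the E14 line, and all were treated with doxycycline (Dox) for 24 h. In the study's system Dox switches on a *Dux* transgene, so no untreated or uninduced cells enter the comparison. The groups were 1 input library and 2 libraries of RNA recovered with an antibody against YTHDF2, a cytoplasmic reader of the RNA mark m6A. The input had no replicate, and no control-antibody IP was analysed. Whether the 2 IP libraries stem from separate cultures is not stated in the labels, so the errors given describe these libraries only. Each error comes from the fitted model, which joins counting noise with a spread estimated from the 2 IP libraries.

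The respiratory chain passes electrons from nutrients to oxygen through complexes I to IV of the inner mitochondrial membrane, and the ATP synthase uses the resulting proton gradient. Subunits of complexes I, III and IV and of the ATP synthase are encoded in part in the nucleus and in part in mitochondrial DNA, whereas the assembly factors are nuclear-encoded and their mRNAs are translated in the cytosol. They insert iron-sulfur clusters, flavin, haem and copper, hold partly built modules together, or help mitochondrial translation products into the membrane.

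The sequences shown are those of the 4 members with the highest IP over input and of *Nubpl*, which had the lowest, because the letters GGACT are the form of the m6A consensus searched here. Each is read 5′ to 3′ on the strand of the gene from the GRCm38.p6 (mm10) RefSeq sequence, with GGACT in capitals and up to 10 bases on each side. Every GGACT in the exons of these genes is given.
Sdhaf1, 3′ UTR, chr7:30321794-30321818, minus strand: tggcactggcGGACTgcataagaca
Dnajc30, coding, chr5:135064347-135064371, plus strand: tcgcgagggaGGACTtactcccgca
Dnajc30, 3′ UTR at the end of the gene, chr5:135065349-135065365, plus strand: taattcttggGGACTcg
Uqcc3, coding, chr19:8880588-8880612, minus strand: tgccggaaagGGACTcgcggcgcag
Uqcc3, 3′ UTR, chr19:8880372-8880396, minus strand: agatacaccaGGACTctctccaagt
Coa3, 3′ UTR, chr11:101278237-101278261, minus strand: cactaacgtcGGACTgtgtgattga
Nubpl, coding, chr12:52098400-52098424, plus strand: catgtcccgaGGACTtcctaagcag
Nubpl, coding, chr12:52271046-52271070, plus strand: ggggtcagctGGACTatttagttgt

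These letters were common in genes of like size. Among tested protein-coding genes whose exonic length lay within 20% of the member's, 69.5% of 652 held at least 1 GGACT for *Sdhaf1*, 76.7% of 981 for *Dnajc30*, 63.4% of 494 for *Uqcc3* and 55.5% of 339 for *Coa3*. The share was 86.7% of 1890 genes for *Nubpl*. *Cox18*, which with *Nubpl* was called depleted, held 0 GGACT, whereas 89.1% of 2162 genes of like length held at least 1. A match of 5 letters is a description of the sequence and not a mapped m6A site.

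The total was 36986994 counts for the input library, 35259827 for IP replicate 1 and 35888743 for IP replicate 2. Mates of a read pair were counted separately, so sampling noise is larger than these totals imply. As to the ESC label, all 8 ESC markers, including *Pou5f1* and *Nanog*, had counts in the input, with a summed level of 8168 CPM, counts scaled to the library total. Summed levels in the input were 32.4 CPM for 6 fibroblast markers, 33.2 CPM for 7 endoderm and trophoblast markers and 90.0 CPM for 5 neural markers. Markers of the 2-cell-like state, which Dux induces, summed to 2861 CPM in the input and to 4868 and 4878 CPM in the IP libraries. The endoderm and trophoblast sum was also higher in the IP libraries, at 68.7 and 61.2 CPM, and so was the neural sum, at 181 and 173 CPM, while the fibroblast sum was lower, at 21.3 and 23.9 CPM. These sums rest on few genes. Of the 5 neural markers, 2 lay above the input and 1 below it at an adjusted p-value under 0.05, and of the 5 endoderm and trophoblast markers tested, 1 lay above. The part of these shifts in the member values was not tested.

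Most assembly factor mRNAs lay within 2-fold of their input level, and a minority lay far above it. Of the 47 genes, 45 passed the filter on low counts, and the other two, *Sco2* and *Pet117*, had 0 counts in all 3 libraries. The filter depends on counts alone and removed only these. A gene was called enriched or depleted at a fold over 2 with an edgeR p-value, adjusted over all 19601 genes tested, under 0.05. By this rule 10 members were enriched (22.2% of 45), beside 15.2% of all genes tested, and 2 were depleted (4.44%), beside 14.0%. Over all genes tested, 29.2% had either call. At any fold, 33 of the 45 passed the adjusted threshold, 18 above the input and 15 below it, beside 58.6% of all genes. These shares are printed side by side only, since the same contrast chose the group.

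The median log2 fold change of the 45 members was 0.0089, with quartiles of −0.51 and 0.74, against 0.0065 over all genes, with quartiles of −0.72 and 0.81. Without *Sdhaf1* and *Dnajc30*, which chose the group, 8 of 43 members were enriched (18.6%, beside 15.2% of all genes tested) and the median was −0.052. The members split almost evenly, with 22 above the input in both IP libraries, 21 below it in both and 2, *Ndufaf7* and *Lyrm7*, on both sides.

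**Figure D1:**
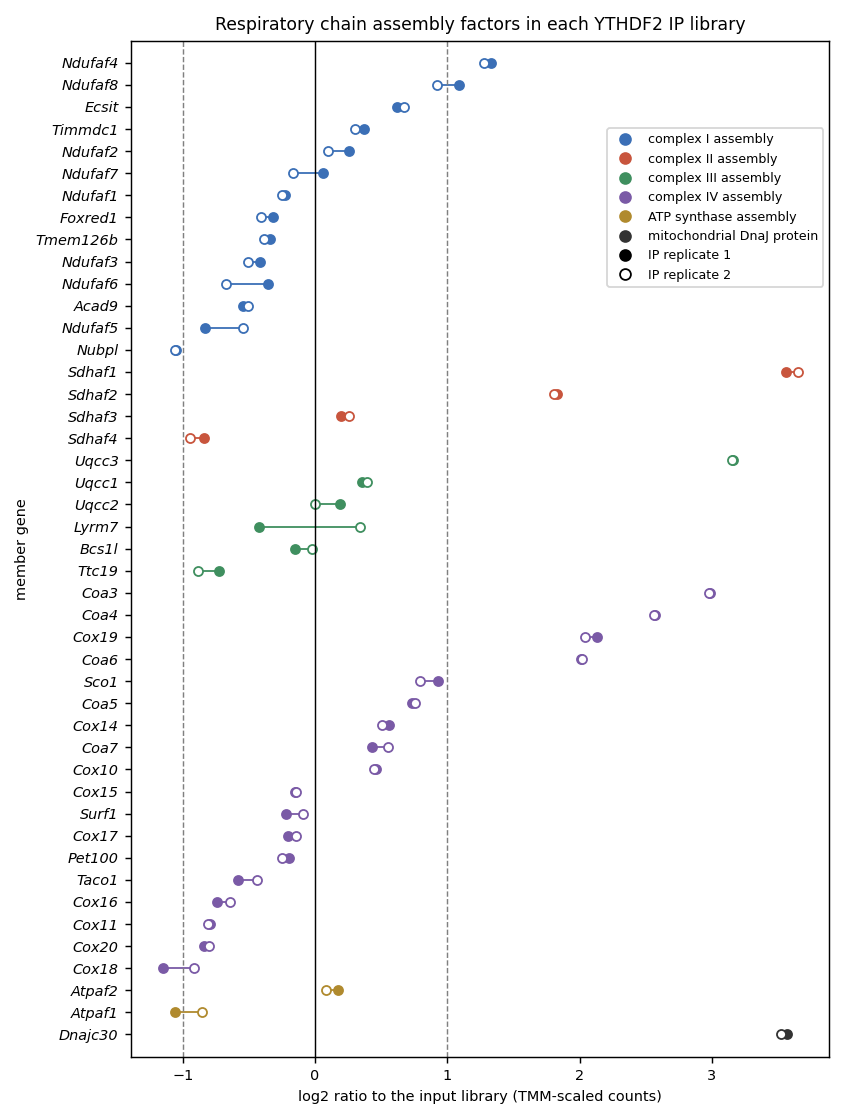
Log2 ratio of each YTHDF2 IP library to the input library (x axis, TMM-scaled counts with 0.5 added) for the 45 tested assembly factors (y axis), grouped by the complex they help to assemble. Filled and open points are IP replicates 1 and 2, and dashed lines mark a 2-fold difference. The 10 enriched members lie to the right, 7 of them over 4-fold, while the remaining members gather around 0 and the pair of points for *Lyrm7* is the widest.

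Replicate IP libraries differed little at these genes. The median absolute log2 ratio between the IP replicates was 0.067 over the 45 members, and its largest value outside *Lyrm7* was 0.31. *Lyrm7*, a chaperone of the Rieske iron-sulfur protein, had 58 input counts and 44 and 76 IP counts, and its ratio between replicates was 0.76 on the log2 scale. Among the enriched members the replicates differed by at most 0.17. The spread between input libraries is unknown.

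Summed levels are given for the 10 enriched members and for the others, a split that the calls themselves fix. Together the 10 held 221 CPM in the input and 1344 and 1338 CPM in the IP libraries. The remaining 37 members summed to 1137 CPM in the input and to 1233 and 1227 CPM in the IP libraries. Of the 10 enriched members, 9 exceeded the input over 2-fold in both IP libraries.

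**Figure D2:**
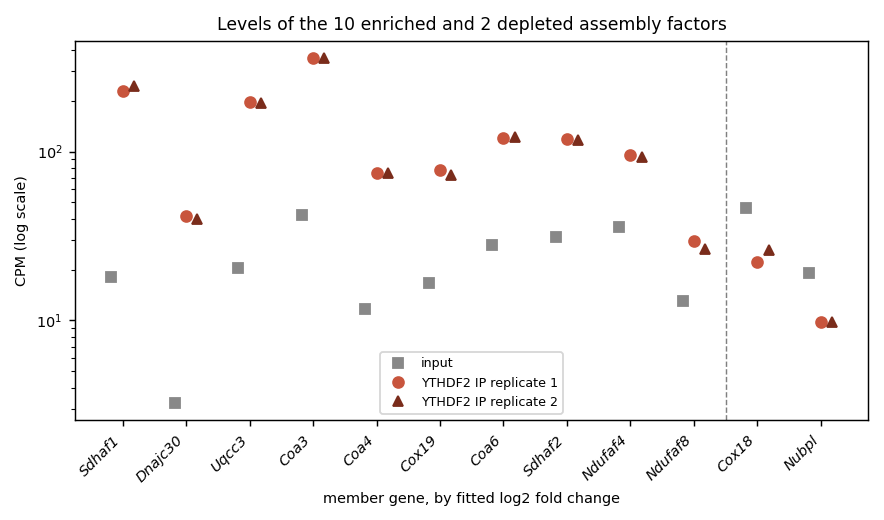
CPM (y axis, log scale) of the 10 enriched members, left of the dashed line, and the 2 depleted members, right of it, ordered by log2 fold change (x axis). Squares are the single input library, and circles and triangles are IP replicates 1 and 2, which nearly coincide for every gene. Levels are to be compared within a gene, not between genes, since CPM is not scaled by length.

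The assembly factors of complex II held the member with the highest value. *Sdhaf1*, an LYR-motif protein that helps iron-sulfur clusters into the subunit SDHB, had 671 input counts and 8082 and 8727 IP counts. Both IP libraries lay far above the input, at log2 ratios of 3.56 and 3.65, and the fitted log2 fold change was 3.61 ± 0.092 (SE, 1 input and 2 IP libraries), or 12.2-fold. The gene is a single exon of 967 bases at chr7:30321409-30322375 on the minus strand, and no exon of another gene overlaps it. *Sdhaf2*, needed to attach flavin to SDHA, had 1159 input counts and 4214 and 4204 IP counts, a log2 fold change of 1.82 ± 0.090. The remaining complex II factors were not called. *Sdhaf3*, another LYR-motif protein acting on SDHB, had a log2 fold change of 0.23. *Sdhaf4*, which binds flavinylated SDHA, was the lowest of the 4, with 505 input counts, 287 and 271 IP counts and a log2 fold change of −0.90 ± 0.181. The SDH assembly factors thus ranged from among the highest to among the lowest members.

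*Dnajc30* encodes a mitochondrial DnaJ protein linked to the turnover of complex I subunits. It had 120 input counts and 1461 and 1431 IP counts, which gave log2 ratios of 3.57 and 3.52 and a fitted value of 3.55 ± 0.181. Like *Sdhaf1* it is a single exon, of 1160 bases at chr5:135064206-135065365 on the plus strand. Of these bases, 65.0% also lie in exons of *Bud23*, a gene of the opposite strand for an 18S rRNA methyltransferase. Reads were counted without regard to strand, and a read touching both genes was not counted, so counts of *Dnajc30* come from the part of its exon that is free of *Bud23*. *Bud23* itself had 3675 input counts and 5140 and 4962 IP counts, with a log2 fold change of 0.42 ± 0.072, and was not called. A stretch of 484 bases of *Dnajc30* also has a copy on another chromosome at 98.6% identity, and reads mapping to several places were left out.

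Of the 6 complex III factors, only *Uqcc3* was enriched (16.7%, beside 15.2% of all genes tested). It takes part in the early assembly of complex III around cytochrome b, and it had 754 input counts and 6898 and 6948 IP counts. The log2 fold change was 3.16 ± 0.091, or 8.93-fold, and the gene lies at chr19:8880014-8880933 on the minus strand with 2 separate exonic blocks. Its partners in the same step, *Uqcc1* and *Uqcc2*, had log2 fold changes of 0.38 and 0.10. The factors that insert or clear the Rieske protein were not enriched either. *Bcs1l*, the ATPase that moves the Rieske protein across the membrane, had a log2 fold change of −0.08, and *Lyrm7* one of 0.01 ± 0.452. *Ttc19*, which clears fragments of the Rieske protein, was the lowest, with 956 input counts, 589 and 535 IP counts and a log2 fold change of −0.81 ± 0.135. The median of the complex III factors was 0.05.

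Complex IV has the most factors in the group, 20, of which 18 were tested. Of these 4 were enriched (22.2%, beside 15.2% of all genes) and 1 was depleted (5.56%, beside 14.0%). *Coa3*, which works with *Cox14* on newly made COX1, had 1563 input counts and 12639 and 12778 IP counts. Its log2 fold change was 2.98 ± 0.075, or 7.91-fold, and it lies at chr11:101277970-101278948 on the minus strand. *Cox14* also has 2 exonic blocks and a similar exonic length, 723 bases against 718, but its log2 fold change was 0.53 and it was not called. *Coa3* and *Cox14* act in the same step, and the difference between their values was not tested.

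The copper route of complex IV was also uneven. *Coa6*, a small protein of the intermembrane space that acts in copper delivery to COX2, had 1041 input counts and 4274 and 4366 IP counts, a log2 fold change of 2.01 ± 0.091. *Cox19*, which has the same twin CX9C fold and works beside *Cox11*, had 616, 2755 and 2621 counts and a log2 fold change of 2.09 ± 0.111. The other proteins of the copper route were not called. *Cox17*, the copper chaperone that hands copper to SCO1 and COX11, had 5009 counts in the input, the most of any member, and a log2 fold change of −0.17. *Sco1*, which carries copper to COX2, had a log2 fold change of 0.86 and was the member just below the enrichment threshold. *Cox11*, which delivers copper to COX1, had one of −0.80. *Sco2*, a relative of *Sco1*, had no counts. *Coa4*, a further twin CX9C protein, had 435 input counts and 2642 and 2668 IP counts and a log2 fold change of 2.57 ± 0.119. *Coa5*, of the same fold, was at 0.74, and *Coa7*, a repeat protein of the intermembrane space, was at 0.49.

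The remaining complex IV factors included the depleted member *Cox18*, an insertase that passes the tail of COX2 through the inner membrane. It had 1703 input counts and 783 and 933 IP counts, at log2 ratios of −1.15 and −0.92, and a fitted value of −1.03 ± 0.110. IP replicate 2 was thus not 2-fold below the input. *Cox20* and *Cox16*, which also act on COX2, had log2 fold changes of −0.83 and −0.69, the first from only 39 input counts and 22 and 23 IP counts. *Cox10* and *Cox15*, which make haem A, had values of 0.45 and −0.15. *Surf1*, an early assembly factor whose loss causes Leigh syndrome in people, was at −0.15, *Taco1*, a translational activator of COX1, at −0.51, and *Pet100* at −0.22. Of these complex IV factors only *Cox18* was called.

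The 14 complex I factors ranged from −1.06 to 1.30 in log2 fold change, with a median of −0.30. *Ndufaf4*, which acts with *Ndufaf3* on the early part of the matrix arm, had 1320 input counts and 3384 and 3314 IP counts, a log2 fold change of 1.30 ± 0.091. *Ndufaf3* was at −0.46, so these partners lay on opposite sides of the input. *Ndufaf8*, which stabilises NDUFAF5, had 481 input counts and 1046 and 945 IP counts. Its log2 fold change of 1.01 ± 0.143 was the lowest of the enriched members, and IP replicate 2 alone was below 2-fold, at a log2 ratio of 0.92. *Ndufaf5*, its partner and an arginine hydroxylase of NDUFS7, was at −0.68.

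The lowest member of all was *Nubpl*, which brings iron-sulfur clusters to complex I. It had 707 input counts and 347 and 351 IP counts, log2 ratios of −1.06 in both, and a fitted value of −1.06 ± 0.158, a 2.08-fold difference. It lay over 2-fold below the input in each IP library, but its call was lost with total counts, with TPM and with a fixed dispersion of 0.1. Factors of the membrane arm intermediate differed among themselves, with *Ecsit* at 0.65, *Timmdc1* at 0.34, *Ndufaf1* at −0.24, *Tmem126b* at −0.37 and *Acad9* at −0.53. *Ndufaf2*, a late-stage factor, was at 0.18, *Ndufaf7*, a mitochondrial methyltransferase, at −0.05, *Foxred1*, a flavoprotein, at −0.36 and *Ndufaf6* at −0.51. None of these 9 was called.

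The chaperones of the ATP synthase were not called. *Atpaf1*, which binds the beta subunit, had 1138 input counts and 557 and 651 IP counts, a log2 fold change of −0.95 ± 0.128, just short of the depletion threshold, which it passed when a trend with GC content was removed. Of its exonic sequence, 81.4% has a copy elsewhere in the genome at 99.9% identity, and reads that mapped to both were left out. *Atpaf2*, which binds the alpha subunit, was at 0.13.

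Levels per length were compared in TPM, which scales counts by exonic length and library total. In the input the tested members ran from 0.774 TPM (*Lyrm7*) to 352 TPM (*Cox17*), and *Coa3* was next highest at 125 TPM. In the IP libraries *Coa3* reached 1105 and 1095 TPM, and *Cox17* stayed at 340 and 353 TPM. *Sdhaf1* went from 39.9 TPM in the input to 524 and 555 TPM in the IP libraries, and *Uqcc3* from 52.2 TPM to 521 and 514 TPM. No TPM is compared for *Dnajc30*, since only a part of its exon could be counted.

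Gene structure, which the choice of members did not use, varied with IP over input. Exons of all RefSeq transcripts of a gene were merged, and the separate exonic blocks were counted. The only members with 1 block were *Sdhaf1* and *Dnajc30*, which chose the group. Of the other members, 4 of the 5 with 2 blocks and 4 of the 12 with 3 to 4 blocks were enriched, or 8 of 17 with up to 4. Over all tested protein-coding genes, 37.7% of those with 2 blocks and 28.1% of those with 3 to 4 were enriched. Of the 26 members with 5 or more blocks, 0 were enriched by edgeR or DESeq2, although 5 lay above the input at an unadjusted p-value under 0.05, and their highest log2 fold change was 0.86. The median was 0.74 over those 17 members, 1.01 over 19 with *Sdhaf1* and *Dnajc30* included, and −0.19 over the 26 with more blocks.

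The same direction was seen over all tested protein-coding genes. Of 2910 protein-coding genes with 1 to 4 blocks, 31.2% were enriched, against 11.6% of 12291 genes with 5 or more. Across genes, which are not independent replicates, the log2 fold change and the log2 number of blocks were related with Pearson's r of −0.73 and Spearman's rho of −0.58 over the 45 members. Without *Sdhaf1* and *Dnajc30* these were −0.62 and −0.52 over 43. Over all 15201 tested protein-coding genes they were −0.25 and −0.27. These coefficients are descriptions, and the points share the same 3 libraries.

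**Figure D3:**
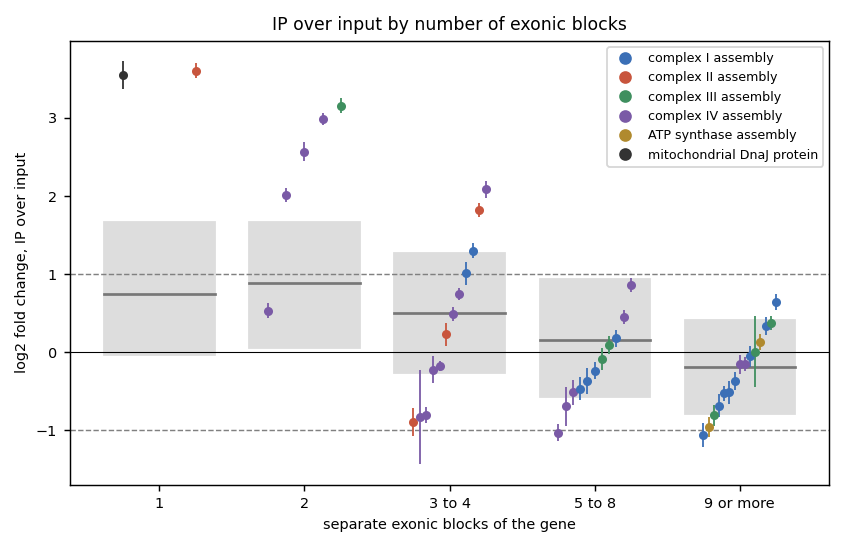
Log2 fold change of IP over input (y axis) of the 45 tested members by the number of separate exonic blocks of the gene (x axis). Points are members with SE bars, coloured by the complex they help to assemble, and are spread sideways in order of value. Grey boxes are the quartiles and grey lines the medians of all tested protein-coding genes, and dashed lines mark 2-fold. All 10 points above the upper dashed line have 1 to 4 blocks, and those with 1 block are *Sdhaf1* and *Dnajc30*, which chose the group.

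Length and base composition were read in the same way. The enriched members had a median exonic length of 899 bases (494 to 3632), against 2332 bases for the 33 members not called and 3580 bases for all tested protein-coding genes. Their median GC content was 52.9%, against 48.0% for members not called. Over the 45 members, the Pearson r of the log2 fold change was −0.34 with log2 exonic length and 0.34 with GC content, and 0.33 with the density of GGAC, the core of the m6A consensus. Without *Sdhaf1* and *Dnajc30* these were −0.30, 0.18 and 0.36 over 43. With GGAC density, Spearman's rho was lower, at 0.20 over the 45 and 0.17 over the 43. Pearson's r with GGAC density was 0.25 over all tested protein-coding genes and 0.12 over 77 nuclear-encoded subunits. With log2 exonic length r was −0.044 over all tested protein-coding genes, of which those enriched had a median length of 3085.5 bases. With GC content r was 0.33 over all tested protein-coding genes, further from 0 than with blocks, and it was 0.45 over 77 nuclear-encoded subunits. Over 26 further assembly factors outside the group it was 0.57 with GC content and −0.38 with blocks. *Ndufaf4* and *Sdhaf2* are exceptions in both features, with 3632 and 3097 exonic bases and 39.5% and 46.7% GC. At least 1 GGACT was present in 9 of the 10 enriched members, in 31 of the 33 not called and in 1 of the 2 depleted. Motifs were counted on the strand of the gene only, and GGACT contains GGAC.

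Many assembly factor genes lie close to another gene. A protein-coding gene on the opposite strand starts within 1000 bases of the start of 18 of the 47 members (38.3%), beside 10.8% of 21787 protein-coding genes. These sets are unlike, since 15201 of the 21787 genes were tested, whereas 45 of the 47 members were. Exons of another gene overlap those of 17 members, and more than 10% of the exonic bases in 11. Shares of such overlap over all genes were not computed. The overlap reached 94.4% for *Sco2*, shared with *Ncaph2* and *Tymp*, and 84.8% for *Pet117*, shared with *Kat14*, and the deposited counting leaves out any read that touches 2 genes. Their counts of 0 therefore cannot be told apart from reads lost in counting. *Cox16* shares 85.1% of its exonic bases with *Gm20498* of the same strand, which had 0 counts. *Kat14*, which encodes a subunit of a histone acetyltransferase complex, was itself enriched, with 2060, 8029 and 8322 counts and a log2 fold change of 1.95 ± 0.075. Of the enriched members, 6 have no exon overlap and 8 have under 2%. The exceptions are *Dnajc30* and *Coa6*, of which 16.0% is shared with *Tarbp1* (722 input counts, 269 and 279 IP counts). Over the 36 members with under 10% overlap, the correlation with exonic blocks was −0.72 (Pearson) and −0.65 (Spearman).

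Stretches of at least 200 bases with a copy elsewhere in the genome at 95% identity or more were found for 7 members. Beside *Atpaf1* and *Dnajc30*, the longest such stretch made up 37.2% of the exonic bases of *Nubpl*, 30.7% of *Cox20* and 18.2% of *Acad9*, and at most 6.08% of *Ttc19* and 2.45% of *Ndufaf5*. Reads that map to both copies were not counted, so the values of these genes are less certain.

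The subunits that these factors assemble were read beside them, with *Atpif1*, an inhibitor of the ATP synthase, counted among those of the ATP synthase. Of 77 nuclear-encoded subunits of complexes I to IV and the ATP synthase, all tested, 0 were enriched (beside 15.2% of all genes), 7 were depleted (9.09%, beside 14.0%) and 63 had a log2 fold change below 0. Their median log2 fold change was −0.45. DESeq2 also called 0 enriched. At any fold, edgeR placed 11 of the 77 above the input at an adjusted p-value under 0.05 and 12 at an unadjusted one, beside 5588 of all 19601 genes at the adjusted one. In either direction 69 of the 77 passed the adjusted threshold, 58 of them below the input, beside 58.6% of all genes. The highest subunit was *Ndufa2* of complex I, at 0.86 ± 0.073, from 3116 input counts and 5702 and 5892 IP counts. The lowest was *Atp5a1*, the alpha subunit of the ATP synthase, at −1.59 ± 0.048, from 46058, 15169 and 16368 counts.

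The median was below 0 for the nuclear subunits of each complex. It was −0.45 for 37 complex I subunits (from *Ndufb5* at −0.87 to *Ndufa2*), −0.71 for 4 complex II subunits (lowest *Sdhc* at −1.26) and −0.49 for 9 complex III subunits (from *Uqcrb* at −1.31 to *Uqcr11* at 0.68). For 11 complex IV subunits it was −0.42 (from *Ndufa4* at −1.43 to *Cox8a* at 0.52), and for 16 ATP synthase subunits −0.67 (from *Atp5a1* to *Atp5d* at 0.19). Complex II thus held *Sdhaf1*, the highest assembly factor, and had 4 of 4 catalytic and anchor subunits below the input.

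The subunits were also set beside the factors by level and gene structure. The median level of the subunits in the input was 275 TPM, against 26.3 TPM for the assembly factors. Between the log2 fold change and the log2 input TPM, r was −0.35 over all tested protein-coding genes, 0.21 over the 45 assembly factors and −0.18 over the subunits. Input counts enter both measures. Of the subunits, 42 have 1 to 4 exonic blocks and 35 have 5 or more, and 0 were enriched in either class, beside 8 of 17 assembly factors with 1 to 4 blocks other than *Sdhaf1* and *Dnajc30*. The shares of all tested protein-coding genes enriched in these classes were 31.2% and 11.6%. Over the 77 subunits the log2 fold change and the log2 number of blocks had a Pearson r of −0.44. The 13 mRNAs encoded in mitochondrial DNA were depleted in 13 of 13 cases, beside 14.0% of all genes tested, with a median log2 fold change of −5.97.

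**Figure D4:**
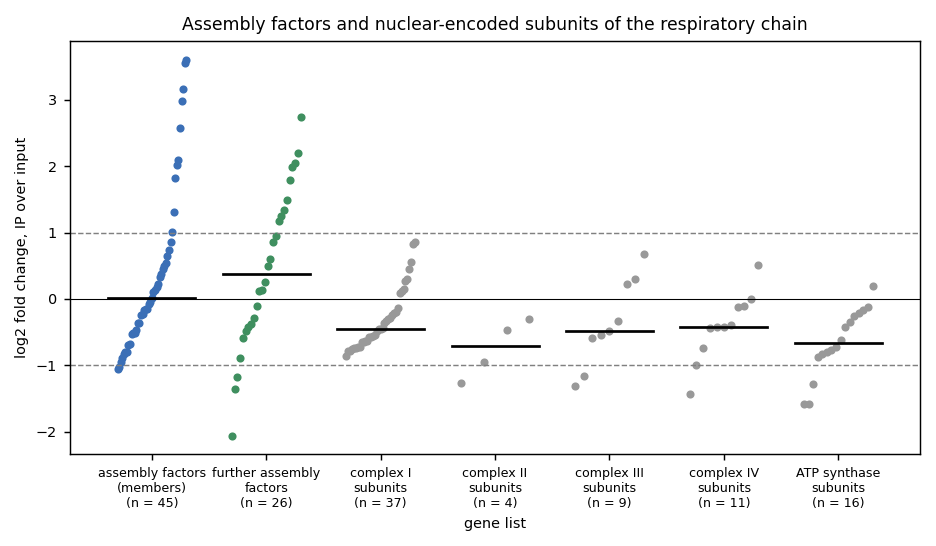
Log2 fold change of IP over input (y axis) of each tested gene in the 45 assembly factors, 26 further assembly factors and the nuclear-encoded subunits of each complex (x axis). Points are genes in order of value, black lines are medians and dashed lines mark 2-fold. No subunit lies above the upper dashed line, while 10 assembly factors and 9 further factors do.

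A second list of assembly factors outside the group was read in the same way. Of 30 genes, 26 were in the table and tested, of which 9 were enriched (34.6%, beside 15.2% of all genes), 3 were depleted (11.5%, beside 14.0%) and 14 were not called, with a median log2 fold change of 0.37. The highest was *Smim20*, which works with *Coa3* and *Cox14* on COX1, at 2.74 ± 0.102, from 608 input counts and 4099 and 4267 IP counts. The lowest was *Hccs*, which attaches haem to cytochromes c and c1, at −2.06 ± 0.136, from 1357, 342 and 327 counts. In this list 6 of 11 genes with 1 to 4 blocks and 3 of 15 genes with 5 or more were enriched, beside 31.2% and 11.6% of all tested protein-coding genes. Their median level in the input was 31.2 TPM. Among the 9 enriched genes, *Fdx2* had only 10 input counts, with an SE of 0.758. DESeq2 called 8 genes of this list enriched. The list was drawn up with earlier results of these data known, so its shares are a description only.

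Calls at the margin depended on the processing. Both depleted members lost their call when total counts or TPM replaced TMM, with *Nubpl* at −0.96 and −0.91 and *Cox18* at −0.93 and −0.88. With a dispersion fixed at 0.1, *Nubpl*, *Cox18*, *Ndufaf4* and *Ndufaf8* lost their calls. *Ndufaf8* lost its call when a trend with GC content was removed, at a log2 fold change of 0.46, and *Sco1* gained one there and under TPM. Removal of that trend also moved *Ndufaf4* from 1.30 to 1.94 and *Ttc19* from −0.81 to −0.23.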

How the data were processed

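The authors aligned reads to mm10 with HISAT2 2.2.1, and the deposited values are raw counts per gene with the exonic length of each gene in bases, counted over RefSeq exons with featureCounts 2.0.3, as the file header states. Mates were counted separately and strand was not used. By the tool's defaults, reads mapping to several places or to more than 1 gene were left out. Removal of duplicates was not given in the sources used here. The labels describe an IP on Trizol-extracted RNA, whereas the study's methods describe an IP on cleared lysate, and the counts do not tell which was done.

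The 3 libraries were grouped by their titles. The analysis used edgeR 4.0.16 under R 4.3.3, with filterByExpr, TMM scaling (factors 0.957, 1.02 and 1.02) and the quasi-likelihood test of IP against input, with Benjamini-Hochberg adjustment over 19601 genes. The residual spread comes from the 2 IP libraries alone (common dispersion 0.00538, a coefficient of variation of 7.33%). Log2 ratios of single libraries used 0.5 added counts, and the floor was 3 counts (0.0811 to 0.0851 CPM). The procedure was also run on simulated counts. All simulated libraries shared a single dispersion, so that run cannot address the unknown spread of the input. All 47 members had the same start and end in GRCm38.p6. Copies were searched with blastn 2.17.0 (at least 95% identity over 200 bases). CPM and TPM were computed from the deposited counts.

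The members, the pathway and marker lists and the rule for named genes were chosen with earlier results of these data known. That rule gives counts for *Sdhaf1*, *Dnajc30*, every called member and the highest and lowest of each role group of at least 4. Other members are given by log2 fold change, and non-members only where exons overlap or as the extremes of a pathway list. Counts of *Lyrm7*, *Cox20*, *Cox17* and *Atpaf1*, and of *Fdx2* outside the group, were added after their values were seen. Alternatives were other scalings (DESeq2 size factors, total counts, TPM), other filters, DESeq2 1.42.0, a fixed dispersion of 0.1, halved counts, removal of a GC trend, and each IP library left out.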

Additional observations from a re-analysis of the deposited data

How the results depend on the processing

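The count of enriched members ranged from 8 to 11 over all alternatives, and from 9 to 10 when 1 IP library was left out and the fold alone was used. With a dispersion fixed at 0.1 it was 8, without *Ndufaf4* and *Ndufaf8*. The count of depleted members was 0 with total count scaling, with TPM scaling and with a dispersion of 0.1, and ranged from 1 without IP replicate 1 to 3 without IP replicate 2. It was 3 after a GC trend was removed, with *Atpaf1* added, and 10 subunits were depleted there, beside 7. Scaling to total counts moved the all-gene median to 0.10 on the log2 scale and scaling to TPM moved it to 0.16. The median of the members moved with them, to 0.10 and 0.16, and was 0.15 after the GC trend was removed, where the all-gene median was −0.035, with 0.0013 to 0.056 when 1 IP library was left out. The median of the subunits was −0.35 with total counts, −0.42 without a filter, −0.30 with TPM and −0.58 without the GC trend, and −0.46 to −0.44 when 1 IP library was left out. Of the subunits, 1 was enriched with TPM, and 3 were depleted with a dispersion of 0.1. The further factors had 5 enriched and 1 depleted with a dispersion of 0.1, and medians of 0.47 with total counts, 0.40 without a filter, 0.52 with TPM and 0.33 without the GC trend. Of members with 5 or more blocks, 1 was enriched with TPM and 1 without the GC trend, *Sco1* in each case. The cause of these moves was not tested. Of the 14 members named with counts under the rule, 14 kept direction and call with DESeq2, with its size factors, with both other filters and with halved counts, and none turned direction under any alternative. No paired analysis was possible because only 1 input was sequenced, with no number matching either IP library. Low depth limits *Cox20* and *Lyrm7*, with 39 and 58 counts in the input.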
